A study of Danio rerio with 20 samples.

Results

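The cytosolic ribosomal protein genes of zebrafish muscle are described here, 84 of the 32105 genes in the deposited count table. They were taken by name alone: every gene whose symbol, in any case, begins with rpl or rps and a digit, together with the P-stalk genes, and without the S6 kinases. By name, 46 encode large-subunit and 36 small-subunit proteins. The other 2, rps19bp1 and RPL7L1, carry names of this form but encode a protein that binds RPS19 and a large-subunit assembly factor related to RPL7, so the label holds for 82 of the 84. The symbols are partly in the human style, and 8 genes share a symbol with another, so such pairs are told apart by Ensembl identifier. FAU and RPSA2, whose products are also ribosomal proteins, have names that the rule does not take and are not members.

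Each cytosolic ribosome holds 1 copy of most of its proteins, so their genes are transcribed in near balance. In vertebrates their mRNAs begin with a pyrimidine tract, the 5′ TOP motif, through which mTOR signalling sets how strongly they are translated. In skeletal muscle, ribosome content is known to change with loading, growth and age, which is the setting of a study of exercise and age.

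Muscle came from male zebrafish of the strain AB JxTu, in 4 groups of 5 libraries. Fish were 1 year or 3 years old, and at each age the perturbation was either none (rest) or swim-tunnel, in which fish swim against a current. All groups share strain, sex and tissue, and the labels used here give no duration of swimming, batch, date or pairing and do not say whether a library held 1 fish. P-values therefore measure the spread between these libraries. Libraries are numbered within each group in record order.

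Library totals ran from 31550213 to 48920974 counts, and all 84 genes were among the 17025 tested. Of them, 82 had at least 100 counts in every library, so counting error is small beside the spread between libraries. The tissue label held, with 24 skeletal muscle markers summing to 125600 to 291100 CPM (counts scaled to library size). Library scaling bears on every level below. Scaling factors by the trimmed mean of M-values (TMM), which multiply the library total, averaged 1.105 in 1-year rest, 0.844 in 1-year swim, 1.08 in 3-year rest and 1.01 in 3-year swim libraries. The lowest, 0.659, belonged to 1-year swim library 3, and the levels of 70 of the 84 genes were highest in that library after scaling. Medians of the set and several single-gene values that rest on it are given with and without it. Counts of members at an unadjusted p under 0.05 and correlations within groups are given only with it.

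As a share of all counts, which needs no scaling factor, the 84 genes had higher mean values in the 3-year groups. In 1-year rest the shares were 3.24%, 3.65%, 3.25%, 3.10% and 3.56%, a mean of 3.36% ± 0.235 (SD, n = 5). In 1-year swim they were 2.94%, 3.63%, 4.76%, 3.08% and 3.07%, a mean of 3.50% ± 0.756 (SD, n = 5). The 3-year rest libraries gave 4.06%, 3.33%, 4.68%, 4.05% and 4.79%, a mean of 4.18% ± 0.585 (SD, n = 5). Every 3-year rest library but the second lay above all 1-year rest libraries. In 3-year swim the shares were 4.96%, 3.44%, 5.13%, 5.29% and 4.35%, a mean of 4.64% ± 0.758 (SD, n = 5). The mean share at 3 years was 1.25 times that at 1 year at rest and 1.33 times after swimming, and the swim-to-rest ratio was 1.04 at 1 year and 1.11 at 3 years. In bulk tissue, fewer cells of a type and less RNA per cell cannot be told apart, and these shares also depend on what other genes do: transcripts of 13 mitochondrially encoded protein genes took 13.04%, 14.6%, 11.6% and 9.28% of counts in the same 4 groups. No test was made of the shares.

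**Figure D1:**
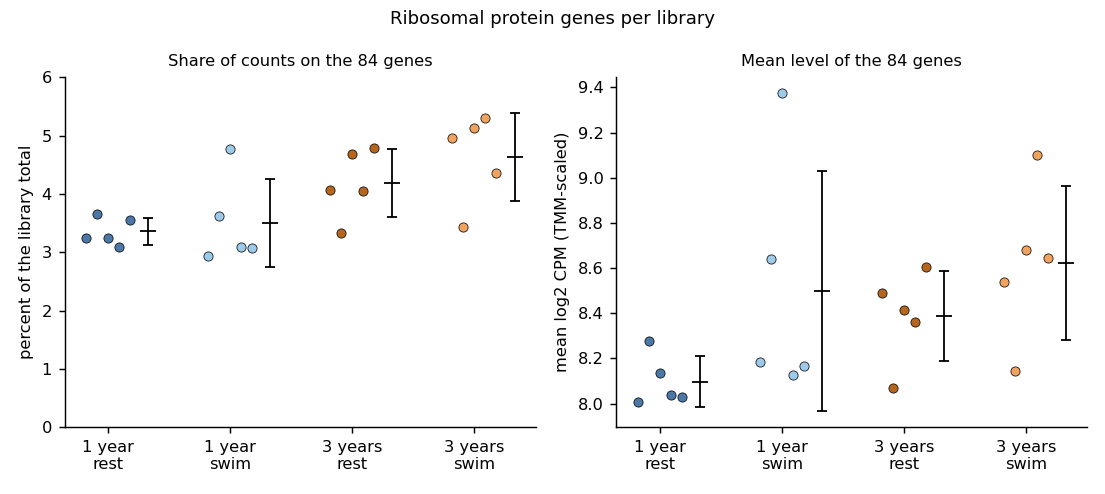
Percent of each library's counts on the 84 genes (left, axis from 0) and the mean TMM-scaled log2 CPM of the same genes (right, axis not from 0), 1 point per library, with group mean and SD (n = 5). On the left 1-year swim library 3, at 4.76%, lies among the higher 3-year libraries, which reach 5.29%; on the right 1-year swim library 3 stands far above the other 4 of its group.

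Per length, the genes spanned a wide range, extended at its lower end by a few low members. Mean levels over the 20 libraries ran from 2.75 to 1655 RPKM (counts scaled by gene model length and library total), with a median of 400.6 RPKM, and 78 genes reached 140 RPKM. RPLP0, the base of the P-stalk that recruits translation factors to the large subunit, was highest at 1655 RPKM. Next came rplp2, a stalk protein bound through RPLP0, at 1167 RPKM, then the small-subunit genes RPS2 at 1152 RPKM and RPS7 at 1147 RPKM. The order of those 3 differed between libraries, so it is not resolved. In 1-year rest, RPS2 was the highest of the 3 in library 1 (1045 RPKM), RPS7 in library 2 (1143 RPKM) and rplp2 in library 4 (1114 RPKM). The large-subunit genes rpl32 (1039 RPKM), RPL26 (955 RPKM) and RPL35 (829 RPKM) and the small-subunit genes rps20 (903 RPKM), RPS15 (831 RPKM) and RPS25 (795 RPKM) completed the 10 highest.

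The low end held the 2 genes that encode no structural protein and several second copies. rps19bp1 had 2.75 RPKM and RPL7L1 5.87 RPKM. The paralogues rps11l, RPL22L1 and rps27l had 8.77, 35.4 and 45.9 RPKM. Whether the authors' counting split reads between near-identical copies is not given in the sources used here, so levels within such pairs are uncertain.

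Between libraries of the same group, the 84 genes moved almost as 1 unit. For each gene, the deviations of its log2 CPM from the group means were correlated with those of the mean of the other genes over the 20 libraries, as a description. The median r was 0.974, and 74 genes reached 0.9. On library totals, without TMM factors, the median r was 0.943 and 62 genes reached 0.9. The mean of the set held 69.4% of the within-group variance of its members. All libraries share their own scaling factor across genes, which adds to such correlations. Library 3 of 1-year swim stood 0.88 log2 units above its group mean for the set, library 4 of 3-year swim 0.48 above and library 2 of 3-year swim 0.48 below. No correlation was computed without library 3 of 1-year swim, the furthest from its group mean, so how far they rest on it is not known.

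The genes that left the common pattern were few and mostly low. Among them, rps11l had r = 0.46, rps19bp1 0.55, rps27l 0.80 and RPL22L1 0.81. Of the abundant genes, RPL12, which sits at the base of the stalk, had r = 0.82, and RPS2 had 0.84. Other low values were those of rplp2l with 0.89, RPL7L1 with 0.89 and RPL19 with 0.90.

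**Figure D2:**
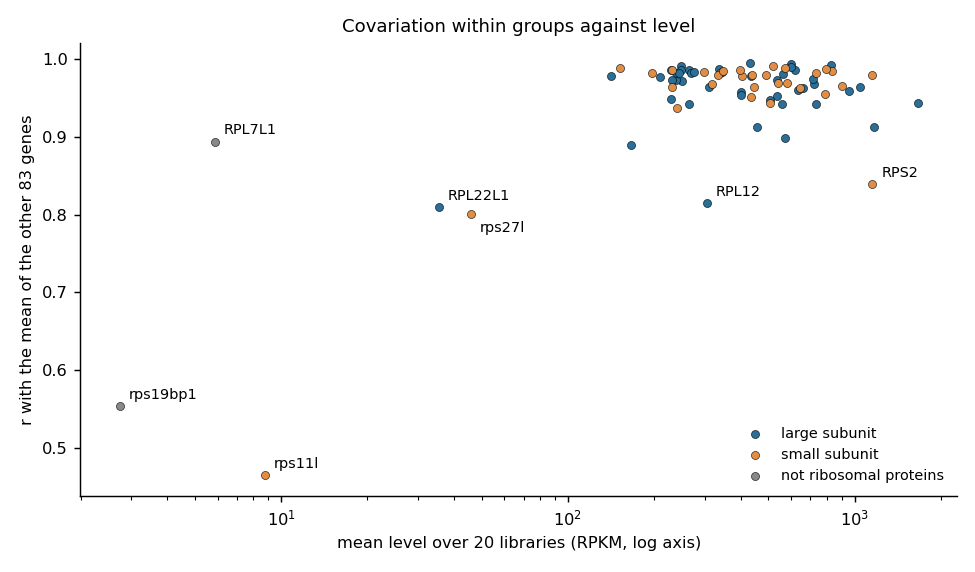
Each point is 1 gene of the set, genes not reported here being left out: mean level over 20 libraries in RPKM (log axis) against the correlation of its within-group deviations with the mean of the other 83. Most genes lie above 0.9 and above 140 RPKM, while rps11l and rps19bp1 lie below 0.8.

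The P-stalk genes were highest in the same swim libraries as the set, but some lay at its ends in single comparisons. For age at rest RPLP0 was among the lowest (0.15, against a set median of 0.36). For age after swimming rplp2 was among the lowest (-0.16) and rplp2l among the highest (0.32), against a set median of 0.11. RPLP0 had scaled levels of 1713, 1604, 1742, 1458 and 1460 CPM in 1-year rest and 1720, 2131, 3551, 1737 and 1647 CPM in 1-year swim. Its levels in 3-year rest were 1632, 1516, 1888, 1701 and 2125 CPM, and in 3-year swim 2088, 1656, 2328, 3398 and 2375 CPM. Library 3 of 1-year swim and library 4 of 3-year swim were the highest of their groups, and all groups overlapped. The log2 change after swimming was 0.44 at 1 year and 0.42 at 3 years, with adjusted p-values of 0.258 and 0.561 by edgeR, so neither passed. The 1-year value was 0.18 without library 3. The stalk paralogue rplp2l, 48.98 to 198 CPM at 1 year, had the highest log2 change of the set after swimming at 3 years, 0.55 ± 0.33 (SE, adjusted p = 0.650). In RPKM, the ratio of rplp2 to rplp2l was 8.14 ± 1.72 (SD, n = 5) in 1-year rest and 8.94 ± 2.11 in 1-year swim. It was 7.11 ± 1.06 in 3-year rest and 6.14 ± 1.61 in 3-year swim, and the groups overlap within these spreads.

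RPL5 and RPL11 bind the 5S ribosomal RNA and, when not built into a ribosome, bind MDM2, the ubiquitin ligase of p53. RPL11 had 346, 391, 369, 325 and 355 CPM in 1-year rest and 386, 565, 1337, 384 and 350 CPM in 1-year swim. In 3-year rest it had 446, 336, 489, 426 and 498 CPM, and in 3-year swim 501, 402, 597, 749 and 548 CPM. Library 3 of 1-year swim lay above all others, while libraries 1, 4 and 5 of that group lay inside the rest range. Its log2 change after swimming at 1 year, 0.76 ± 0.29 (SE, adjusted p = 0.169), fell to 0.24 without library 3. The 2 RPL5 genes, ENSDARG00000015862 and ENSDARG00000020197, kept RPKM ratios between 0.924 and 1.53 over all libraries.

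Among the other large-subunit genes, rpl7a and RPL19 carried the clearest difference with age. The gene rpl7a had 558, 776, 595, 612 and 587 CPM in 1-year rest and 711, 902, 1187, 660 and 662 CPM in 1-year swim. At 3 years it had 807, 699, 910, 874 and 992 CPM at rest and 989, 685, 997, 1332 and 1025 CPM after swimming. At rest, 1-year library 2 lay among the 3-year values and the other 4 lay below all of them. Averaged over rest and swimming, rpl7a was higher at 3 years by 0.37 ± 0.13 on the log2 scale (SE, adjusted p = 0.0498) and was the 1 member called higher in any comparison. That call is marginal, as it passed in 5 of 20 fits that each left out 1 library.

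RPL19, another large-subunit gene, had 380, 469, 363, 352 and 378 CPM in 1-year rest and 535, 471, 584, 569 and 655 CPM in 3-year rest. These groups did not overlap, although 1-year library 2 and 3-year library 2 came within 2 CPM of each other. After swimming it had 415, 559, 1003, 429 and 404 CPM at 1 year and 708, 408, 1039, 891 and 658 CPM at 3 years. Its averaged log2 change with age was 0.47 ± 0.17 (SE, adjusted p = 0.0640), the highest of the set but past the threshold in 2 of 20 leave-one-out fits.

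For small-subunit genes with a near copy, the balance was steadier between rps27.1 and rps27.2 than between the 2 RPS26 genes. The ratio of rps27.1 to rps27.2 in RPKM stayed between 1.63 and 2.13, and their deviations correlated with r = 0.98. The 2 RPS26 genes (ENSDARG00000030408 over ENSDARG00000037071) had ratios of 1.18 to 1.86. Their mean ratio was 1.429 ± 0.0796 (SD) in 1-year rest and 1.407 ± 0.0946 in 1-year swim. It was 1.501 ± 0.202 in 3-year rest and 1.686 ± 0.104 in 3-year swim. Every 3-year swim ratio lay above all 1-year ratios, while those of 3-year rest overlapped the other groups. This difference was not tested. In RPKM, RPL22 exceeded RPL22L1, its paralogue, 8.93 to 22.1 times, with no separation of groups.

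The gene rps27l, a paralogue of RPS27 that is a p53 target in human cells, was set apart by 1 library. It had 15.7, 15.7, 21.2, 17.1 and 21.1 CPM in 1-year rest and 22.7, 26.5, 129, 17.2 and 21.2 CPM in 1-year swim. At 3 years it had 36.1, 22.9, 23.2, 21.0 and 22.4 CPM at rest and 21.2, 25.3, 34.8, 40.5 and 23.6 CPM after swimming. Library 3 of 1-year swim exceeded every other library. In the rest of that group, libraries 1 and 2 lay above all 1-year rest libraries, and libraries 4 and 5 lay inside the rest range. The log2 change after swimming at 1 year was 1.25 ± 0.43 (SE, adjusted p = 0.130), the highest of the set, and 0.27 without library 3. In the same library CCNG1, cyclin G1, also a p53 target in human cells, had 2779 CPM against 803 to 1451 CPM elsewhere. MDM2 (mdm2) had 25.1 CPM against 16.1 to 22.3, and cdkn1a 1.11 CPM against 0.204 to 1.203. These 3 genes were looked at after the rps27l values were seen. All these levels are TMM-scaled, and library 3 has the lowest factor, 0.659, which raises every scaled level in it. CCNG1 also followed the whole set within groups (r = 0.89), so its high value is not particular to rps27l. Whether p53 activity differed in that library was not tested.

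The gene rps11l (ENSDARG00000093606), a low small-subunit paralogue, stood at either of 2 levels rather than along a range. It had 9.18, 11.3, 9.18, 8.99 and 9.38 CPM in 1-year rest and 0.511, 0.8503, 22.2, 0.375 and 10.1 CPM in 1-year swim. It had 13.5, 0.176, 0.289, 0.347 and 0.607 CPM in 3-year rest and 0.543, 0.571, 0.499, 1.11 and 0.729 CPM in 3-year swim. In all, 8 libraries lay between 8.99 and 22.2 CPM (300 to 584 counts): all 5 of 1-year rest, libraries 3 and 5 of 1-year swim and library 1 of 3-year rest. The other 12 lay between 0.176 and 1.11 CPM, or 8 to 40 counts. Averaged over rest and swimming, the log2 change of rps11l with age was -2.49 ± 0.80 (SE, adjusted p = 0.0337), the 1 member called lower, and this call passed in 12 of 20 leave-one-out fits. Since library 1 was the only high one of 3-year rest, the change at rest, -1.69 (adjusted p = 0.462), was -4.76 without it (adjusted p = 0.0219). The log2 change after swimming at 3 years, -2.11, became 0.97 without that library.

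**Figure D3:**
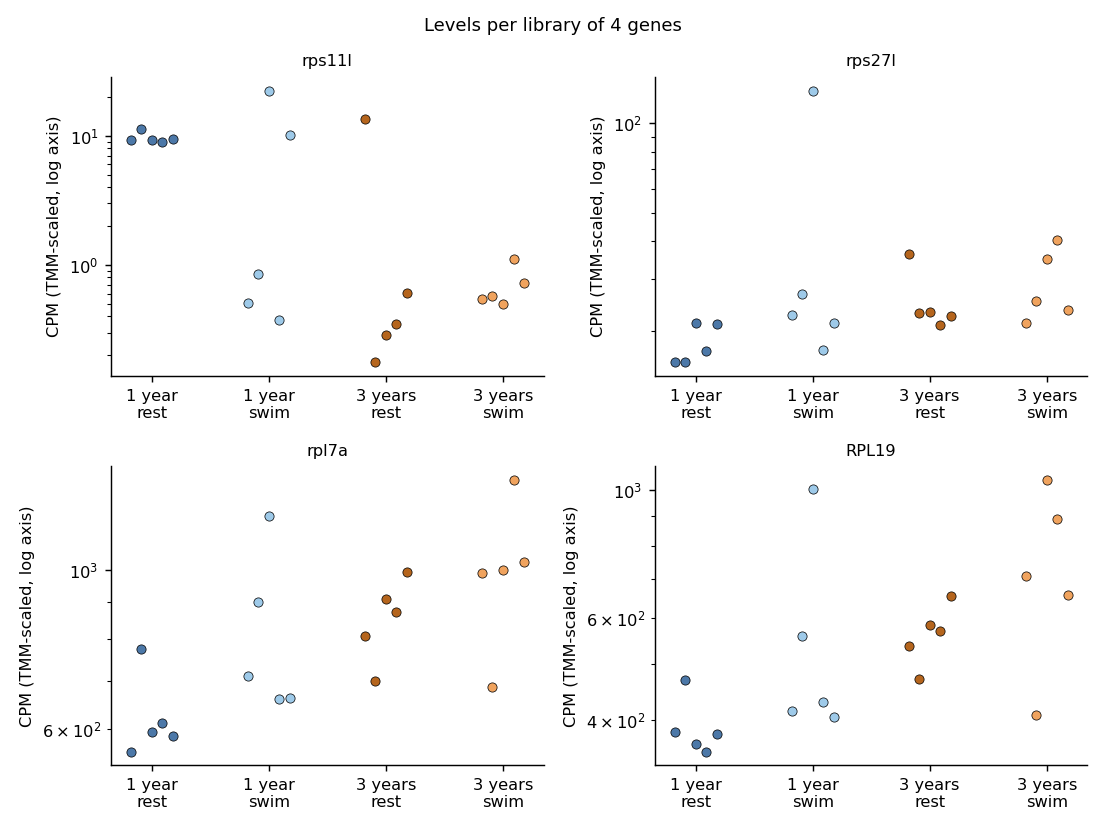
TMM-scaled CPM per library (log axes, differing between panels) of rps11l, rps27l, rpl7a and RPL19, 5 points per group. rps11l falls into 2 levels, rps27l has 1 high library in 1-year swim, and most 3-year libraries of rpl7a and RPL19 lie above the 1-year rest libraries.

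The first comparison asks how swimming altered muscle RNA at 1 year. No member passed the test, and the fitted changes of both subunits lay close together: the median log2 change was 0.52, against -0.01 over all tested genes, and 83 of 84 were above 0, where 48.7% of all genes were. The large- and small-subunit medians were 0.51 and 0.53. After rps27l and RPL11, the highest were rps20 and RPS29 of the small subunit (both 0.68) and rplp2 (0.65). Without 1-year swim library 3, rps20 was at 0.27, RPS29 at 0.30 and rplp2 at 0.34. Among the lowest were rps11l (-0.50), rps19bp1 (0.05), RPL12 and RPL4 (both 0.37). The sign of rps19bp1 changed with 8 of the 12 alternatives that left out no single library, and RPL12, RPL4 and RPLP0 were just below 0 with library totals (-0.05, -0.05 and -0.0074). The smallest adjusted p was 0.130, so none was under the threshold of 0.05, where 1.14% of all tested genes were called. At an unadjusted p under 0.05, 73 members were higher, where 11.0% of all genes were. RPL13A and RPL26, both of the large subunit, were the only members whose swim libraries all lay above all rest libraries, 2 of 84 where 2.41% of all genes did so.

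That shift moved with the scaling and with 1 library. When libraries were scaled by their totals alone, the median was 0.06 while the median of all genes was -0.40. Relative to all genes it was therefore 0.46, against 0.53 with TMM. Without 1-year swim library 3 it was 0.25, and without libraries 2 and 3, those with the lowest scaling factors, 0.10. Short transcripts as a whole were also higher: the 1445 tested genes with gene models under 1000 bases had a median of 0.31, and longer ones -0.03. Members under 1000 bases had a median of 0.53 and longer members 0.50. Exocrine pancreas markers summed to 35.6 to 240 CPM in 1-year swim, against 2.64 to 25.6 CPM in the other 15 libraries, and liver markers to 422 to 1392 CPM against 252 to 484 CPM. Their part in the result was not tested.

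At 3 years, the TMM-scaled difference between swim and rest was smaller than at 1 year, as long as 1-year swim library 3 was kept. The shares of counts differed more at 3 years, with a swim-to-rest ratio of 1.11 against 1.04 at 1 year. The median log2 change was 0.27, against -0.01 over all genes, and 80 of 84 members were above 0, where 48.9% of all genes were. After rplp2l, the highest were RPL24 (0.42), RPLP0 (0.42), RPS29 (0.40) and RPL19 (0.40), and among the lowest after rps11l were rps19bp1 (-0.25), RPL7L1 (-0.09) and RPL12 (0.10). RPL12 was at -0.02 with library totals. No member was called (smallest adjusted p = 0.561), where 0.0705% of all genes were, and none had an unadjusted p under 0.05, where 4.41% of all genes were higher at that level. The median was 0.12 without 3-year swim library 4 and 0.37 without library 2. Epidermis markers reached 3750 CPM in 3-year swim against 675 to 1197 CPM in 3-year rest, and without the 3 libraries highest in them the median was 0.30.

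Age at rest gave the shift that depended least on scaling. The median log2 change from 1 to 3 years was 0.36, against 0.01 over all genes, with 83 of 84 members above 0, where 50.7% of all genes were. It lay between 0.31 and 0.36 under every alternative that kept all libraries or left out those named for low scaling factors or epidermis markers, and between 0.29 and 0.42 when 1 library was left out. RPL19 (0.53), RPL13 (0.48), RPL5 (ENSDARG00000015862, 0.47), rps27l (0.47) and RPS14 (0.47) were highest, and after rps11l the lowest included rps19bp1 (0.11), RPLP0 (0.15) and RPL7L1 (0.16). No member was called (smallest adjusted p = 0.224, for RPL15), where 1.19% of all genes were. At an unadjusted p under 0.05, 13 members were higher, where 8.17% of all genes were.

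For 8 of the 84 genes, all 3-year rest libraries lay above all 1-year rest libraries, where 2.16% of all genes did so. They were RPL10, RPL10A, RPL19 and RPL39 of the large subunit and RPS14, RPS19, RPS21 and rps27.1 of the small subunit. RPL10, which is added late in large-subunit assembly, had 344 to 438 CPM at 1 year and 463 to 550 CPM at 3 years. In human genetics RPS14 and RPS19 are known for the anaemias that follow loss of 1 copy. Leukocyte markers summed to 140 to 462 CPM in 1-year rest and 219 to 356 CPM in 3-year rest, overlapping ranges, and 19 of 21 had log2 changes above 0, with a median of 0.37. The medians of epidermis, nerve and glia, liver and exocrine pancreas markers were -1.67, -1.78, -0.95 and 1.18, and no marker of these 5 lists was called. Of 24 skeletal muscle markers 1 was called, myhz2 (-2.21). Of 11 endothelium markers kdrl was called lower (-0.77) and plvapb higher (1.28), where 1.19% of all genes were called. Slow muscle and connective tissue markers had medians of 0.62 and -0.61 and no call. Their part in the change of the set was not tested.

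After swimming, the age difference of the set depended on the libraries and settings used. The median log2 change was 0.11, against 0.04 over all genes, and 73 of 84 members were above 0, where 52.6% of all genes were. RPL19 (0.40), rplp2l (0.32), rpl7a (0.29) and RPS14 (0.25) were among the highest. After rps11l (-3.29, adjusted p = 0.0602) the lowest were rps27l (-0.57), RPL7L1 (-0.39), rps19bp1 (-0.19) and rplp2 (-0.16). Without 1-year swim library 3, rps27l was at 0.41 and rplp2 at 0.15, and with library totals rps19bp1 was at 0.087 and rplp2 at 0.14. No member was called, where 17.7% of all genes were. The median was -0.03 without 3-year swim library 4, 0.39 without 1-year swim library 3 and 0.53 without libraries 2 and 3 of that group, when 32 members were called higher, where 11.4% of all genes were called. With library totals it was 0.40 with 29 called higher, where 22.4% of all genes were called, and the median of all genes was then 0.29, so relative to all genes it was 0.11. In these same 3-year swim libraries, leukocyte markers summed to 292 to 429 CPM against 112 to 257 CPM in 1-year swim, and 10 of 21 were called higher, while 19 of 20 liver and 13 of 15 exocrine pancreas markers were called lower. What share of the set's difference goes with them was not tested.

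**Figure D4:**
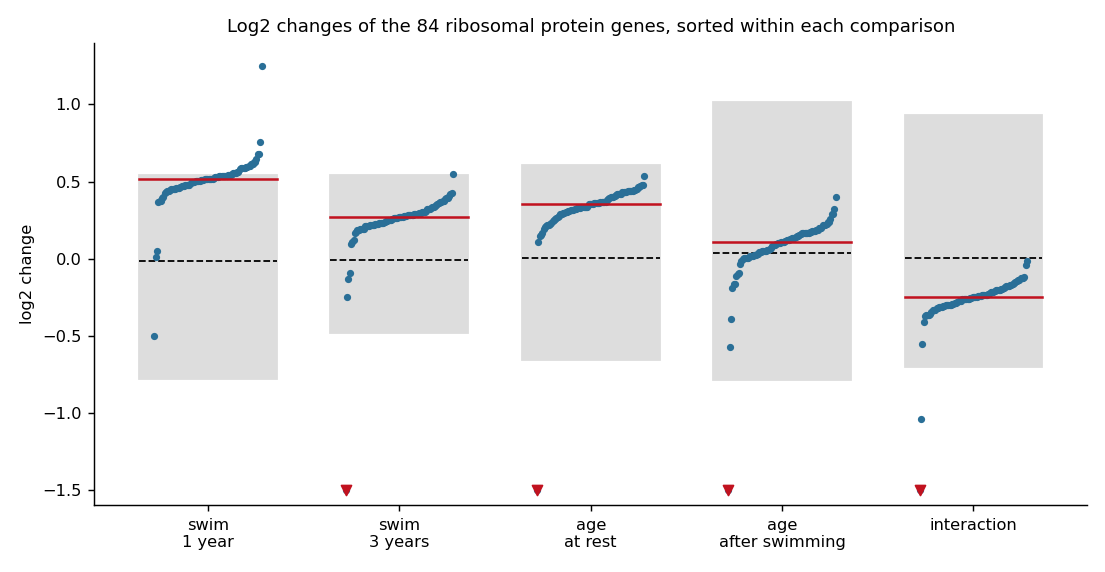
Log2 changes of the 84 genes, sorted within each comparison (blue points), with their median (red line), the median of all 17025 tested genes (dashed line) and the range from the 10th to the 90th percentile of all genes (grey). Red triangles mark rps11l where it lies below -1.5. The members sit close together above the all-gene median in the first 3 comparisons and below it in the interaction.

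The interaction asks whether the swim difference changed with age. All 84 members were below 0, where 49.5% of all genes were, with a median of -0.25 against 0.01 for all genes and values from -1.61 to -0.0169. None was called (smallest adjusted p = 0.426), where 0.335% of all genes were, and none had an unadjusted p under 0.05, where 6.56% of all genes were higher and 7.95% lower at that level. The direction is not settled: the median was above 0 with library totals (0.070), with log2 of RPKM plus 1 (0.095), without 1-year swim library 3 (0.03) and without 1-year swim libraries 2 and 3 (0.18). Averaged over both ages, the swim median was 0.39, and 0.26 without 1-year swim library 3. No member was called there (smallest adjusted p = 0.143), where 0.628% of all genes were. With all libraries, 75 members were higher at an unadjusted p under 0.05, where 7.74% of all genes were.

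Averaged over rest and swimming, the age median was 0.22 and the calls were rpl7a and rps11l, 2 of 84 where 20.2% of all genes were called, 9.57% higher and 10.7% lower. The count turned on 1 library: without 1-year swim library 3, 51 members were called higher, where 20.7% of all genes were called, with a median of 0.37. Without 1-year swim libraries 2 and 3, 70 were called higher, where 19.1% of all genes were called. Without 3-year swim library 2, 7 were called higher, where 3450 of all genes were called. Leaving out any other single library gave 0 to 2 calls. With library totals 56 were called higher, where 21.8% of all genes were called, and with limma-voom with quality weights 52, where 26.5% were. Without the 3 libraries highest in epidermis markers no member was called. After RPL19 and rpl7a, the highest log2 changes included those of RPS14 (0.36, adjusted p = 0.0824) and RPL13 (0.35).

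**Figure D5:**
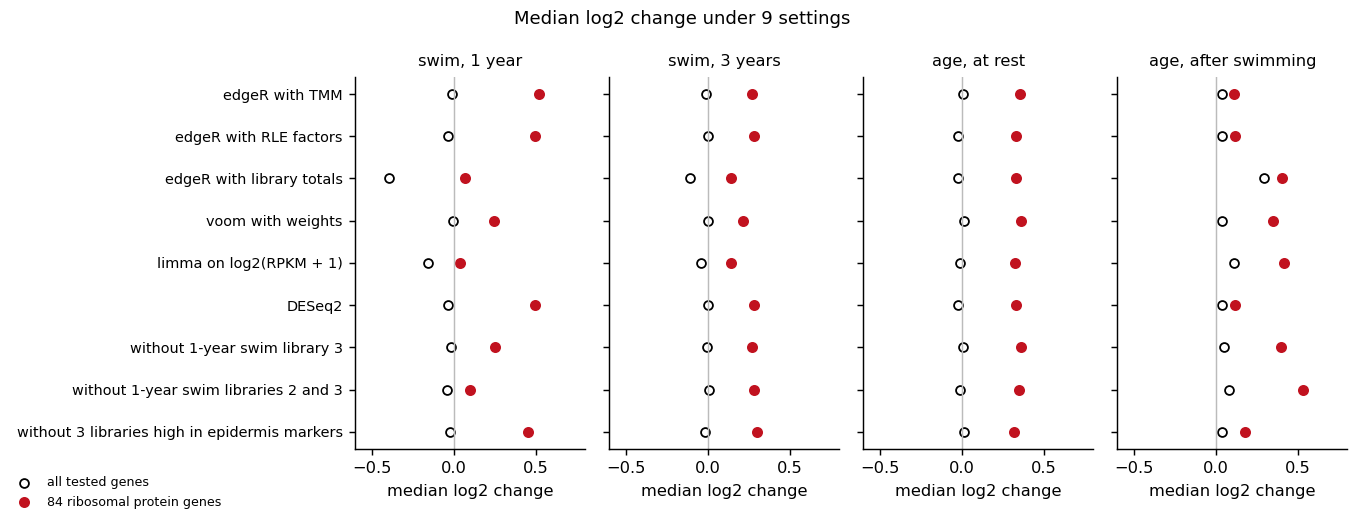
Median log2 change of the 84 genes (red) and of all tested genes (open) under 9 settings in 4 comparisons. The age difference at rest is nearly the same in all 9, while the swim difference at 1 year and the age difference after swimming move with the scaling and with 1-year swim libraries 2 and 3.

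Outside the set, the genes that followed it most closely within groups were looked for by the same correlation. Compared over the 20 libraries with the 1516 genes whose mean log2 CPM reached 5, FAU, a ubiquitin-like fusion to RPS30, had r = 0.99. The unnamed gene ENSDARG00000098458 had 0.99, RPSA2, a small-subunit protein, 0.98, and RACK1, a signalling scaffold on the small subunit, 0.96. Others were si:dkey-151g10.6 (0.95), SERF2 (0.92), SSR2 (0.91), a subunit of the translocon-associated complex, CCNG1 (0.89) and HNRNPM (0.89), a splicing regulator. In the fits, FAU had log2 changes of 0.52 after swimming at 1 year and 0.35 with age at rest, with no call.

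Of 85 ribosome biogenesis genes tested, which serve to build ribosomes, 4 rose from 1 to 3 years at rest and none fell, where 1.19% of all genes were called, with a median of 0.20. Under other settings 1 to 13 rose. The 4 included tsr2, a chaperone of RPS26, from 3.75 ± 0.611 to 8.24 ± 1.66 CPM (SD, n = 5; log2 change 1.14 ± 0.22 SE, adjusted p = 0.0161), and UTP4 of the small-subunit processome, from 8.32 ± 1.56 to 15.6 ± 2.94 CPM (log2 change 0.91). The tsr2 call held under all 12 alternatives, and that of UTP4 under 11 of the 12, being lost without the 3 libraries highest in epidermis markers. After swimming 5 rose and 4 fell with age, a share below the 17.7% of all genes called, with a median of -0.06. Under other settings the median reached 0.20, and 1 to 22 rose and 0 to 5 fell. DKC1, the pseudouridine synthase of ribosomal RNA, fell from 10.04 ± 1.72 to 5.77 ± 1.06 CPM, and POLR1A, the catalytic subunit of RNA polymerase I, from 16.9 ± 0.471 to 11.3 ± 1.88 CPM. The DKC1 call held under 11 alternatives and that of POLR1A under 8, both being lost without the 3 libraries highest in epidermis markers. That of POLR1A was also lost with library totals and with log2 of RPKM plus 1 or 0.1, and its log2 change reached -0.23. In the averaged age effect 14 rose and 3 fell, where 9.57% of all genes rose and 10.7% fell, UTP4 and nop53 (0.60) leading. No biogenesis gene was called by edgeR with TMM in the swim comparisons. With library totals 7 were lower after swimming at 1 year, where 10.3% of all genes were called, and with log2 of RPKM plus 1 the averaged swim effect had 9 lower, where 5.84% were.

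Of 37 elongation factor and other TOP genes tested, 1 rose with age at rest (median 0.34): EIF3L, a subunit of the initiation factor eIF3, from 43.3 ± 8.60 to 74.05 ± 13.4 CPM (log2 change 0.77), a call that held under 10 of the 12 alternatives. After swimming 5 rose and 1 fell with age (median 0.18), where 7.59% of all genes rose and 10.1% fell. Under other settings 4 to 22 rose. Of the 5, pabpc1b, a poly(A)-binding protein, went from 199 ± 35.9 to 427 ± 81.8 CPM (log2 change 1.101). VIM, vimentin, went from 12.9 ± 3.90 to 33.5 ± 15.1 CPM. In the averaged age effect 12 rose and 1 fell, where 9.57% of all genes rose and 10.7% fell. The medians of this list stayed above 0 in the 3 age comparisons under the 11 or 12 alternatives run for it, which left out no single library. Of 35 further initiation factors, 1 rose and 4 fell with age after swimming, where 17.7% of all genes were called, with EIF3G rising (0.54) and EIF4G1, the scaffold of the cap-binding complex, falling (-0.84). The EIF3G call held under 11 of the 12 alternatives and that of EIF4G1 under 10, the latter being lost with log2 of RPKM plus 1 or 0.1. Under other settings 0 to 11 rose and 0 to 7 fell. Averaged over rest and swimming, 7 rose and 3 fell with age, where 9.57% of all genes rose and 10.7% fell. Among those that rose were EIF3G (0.49) and EIF3I (0.51). No gene of these 2 lists was called by edgeR with TMM in the swim comparisons.

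Of 45 regulators of mTOR and of TOP translation tested, DEPTOR, an inhibitor of mTOR, fell with age at rest from 13.6 ± 4.49 to 5.28 ± 1.36 CPM (log2 change -1.36 ± 0.26 SE, adjusted p = 0.0161) and was the only one called there, a call lost when only the 2 groups compared were fitted. After swimming 4 rose and 9 fell with age, where 7.59% of all genes rose and 10.1% fell, and 2 to 10 rose and 2 to 9 fell under other settings. The smallest adjusted p-values were those of DEPTOR (-1.87) and EIF4EBP2 (-0.71), a repressor of cap-dependent translation whose call held under 9 of the 12 alternatives. In the averaged age effect 7 rose and 5 fell, where 20.2% of all genes were called. In the averaged swim effect EIF4EBP3, a related repressor, was the only one called, higher by 1.07 ± 0.23 on the log2 scale (SE, adjusted p = 0.0356). Its means were 15.7 and 37.6 CPM at rest and after swimming at 1 year, and 23.8 and 43.8 CPM at 3 years, and the call was lost without 1-year swim libraries 2 and 3 and with no filter on low counts.

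MYC drives ribosomal protein and rRNA genes, and MXI1 and MXD3 compete with it for the partner MAX. Of 21 genes of this kind, MXI1 alone was called after swimming, in the averaged effect (1.66) and at 1 year, from 32.4 ± 17.0 to 146 ± 50.01 CPM (log2 change 2.17 ± 0.36 SE, adjusted p = 0.0138). MXD3 rose with age at rest (2.09), from 0.563 to 2.401 CPM, and MYCL fell (-0.76), a call that held under 8 of the 12 alternatives, not with library totals. After swimming 3 rose and 4 fell with age, led by MXI1 (-2.14) and MXD3 (1.69), where 17.7% of all genes were called, and 2 to 9 rose and 1 to 4 fell under other settings. The averaged age effect had 4 higher and 4 lower, where 20.2% of all genes were called. The MXI1 call at 1 year was lost without 1-year swim libraries 2 and 3 and when only the groups compared were fitted. Of 23 genes that monitor ribosomes or unassembled ribosomal proteins, 1 rose at rest with age, rnf25 (0.84), a ubiquitin ligase of stalled ribosomes, whose call held under 7 of the 12 alternatives and was lost with RLE factors (the size factors of DESeq2). After swimming 1 rose and 5 fell with age, where 17.7% of all genes were called, and 1 to 6 rose and 0 to 5 fell under other settings. Those that fell included PELO (-1.12), which rescues stalled ribosomes, and bag6 (-0.41), whose calls held under 10 and 7 of the 12 alternatives. In the averaged age effect 3 rose and 4 fell, where 20.2% of all genes were called, with rnf25 (0.75) and RNF14 (1.28) rising.

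The mitochondrial ribosomal protein genes, nuclear genes for the separate ribosome of mitochondria, had the most calls of the 7 lists with age after swimming. Of 74 tested, 2 rose after swimming at 1 year, MRPL23 from 33.1 ± 4.37 to 48.96 ± 9.09 CPM (log2 change 0.57) and MRPS24 (0.73), with a median of 0.53. The calls held under 5 and 2 of the 12 alternatives. With library totals that median was 0.12 and no gene was called, while DESeq2 called 29 higher, where 5.29% of all genes were called. From 1 to 3 years after swimming 61 fell and none rose, with a median of -0.82, where 10.1% of all genes were called lower and 7.59% higher. Under the 12 alternatives the median lay between -0.82 and -0.50 and 42 to 63 fell. MRPL21 fell from 16.3 ± 2.18 to 6.95 ± 0.333 CPM (log2 change -1.23 ± 0.14 SE, adjusted p = 6.996e-05), and mrpl9 fell from 13.1 ± 3.90 to 3.95 ± 0.272 CPM. At rest none was called with age, with a median of -0.04. In the interaction 2 were called lower, mrps31 (-1.01) and MRPL21 (-0.94), with a median of -0.81, and the calls held under 5 and 2 of 11 alternatives, while DESeq2 called 23 lower, where 2.39% of all genes were called. In the averaged age effect 1 rose and 45 fell, where 9.57% of all genes rose and 10.7% fell. The median was -0.44 beside 0.22 for the cytosolic genes. In the 3-year swim comparison none of the 7 lists held a call, by edgeR or under the 12 alternatives run for lists.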

How the data were processed

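RNA of 20 muscle libraries was read from the deposited table of counts, raw whole-number counts per Ensembl gene. Per the submitters' processing notes, reads were handled with featureCounts 1.4.6-p4, STAR 2.4.1d and bcl2fastq 1.8.4 on GRCz10, and per the labels' protocols libraries were made from total RNA with the Illumina TruSeq kit. The annotation release, strand setting and treatment of reads that match several genes are not given in the sources used here. A second deposited table, named as RPKM, was treated as a score: on 406 genes, gene lengths worked back from it were whole, within 0.02 bases, for 8.36% of values when a library's own total was used and for 99.5% when totals were used in turn. Gene lengths were recovered that way and RPKM recomputed with own totals. No column of per-sample values was left unmapped.

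Symbols came from a table pairing 26269 genes with symbols. Of 521 names in the lists, 478 matched. Genes were filtered with filterByExpr of edgeR 4.0.16, leaving 17025 with 99.95% of counts. They were scaled by TMM and fitted with 1 robust quasi-likelihood model of 4 group means (R 4.3.3, common dispersion 0.163). P-values were adjusted by Benjamini-Hochberg over all genes tested, with calls under 0.05. The 7 comparisons were swim against rest at either age, 3 years against 1 year at rest and after swimming, the interaction, and the averages over age and over swimming; they share groups. Log2 CPM used a prior count of 2. The fit was checked on simulated data with known changes, as many up as down, and with the fitted scaling factors taken as true. That check cannot show whether the scaling itself is right. Alternatives were RLE factors, library totals, TMM without the members, no filter, 1 CPM in 5 libraries, only the groups compared, limma 3.58.1 (voom with quality weights; log2 of RPKM plus 1 or 0.1), DESeq2 1.42.0, and each library left out. Leaving out 2 libraries of lowest TMM factor or 3 of highest epidermis markers was chosen after seeing the data.

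The members and lists were chosen with earlier results of these data known. Named members are those called, the 5 highest and lowest in each comparison of 2 groups (of the averages and the interaction, for which the rule also held, fewer are named), the 10 highest and 5 lowest per length, paralogues, and the 5 lowest in correlation; of each list, up to 2 called genes with the smallest adjusted p per comparison; and the 10 non-members most like the set. The p53 target genes, the members without overlap and ENSDARG00000070516 were named after their values were seen. Some members and 1 non-member that these rules take are not reported here. No sequences were printed.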

Additional observations from a re-analysis of the deposited data

Results flagged for a closer look

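In 36 groups of 5 libraries looked at, 10 values lay so far from the other 4 of their group that the gap exceeded 0.71 of the group's range, the critical value of Dixon's test at 5 samples. Chance flags about 1 in 20 groups when groups are independent and not chosen by their values. The genes here were partly chosen by their values and move together, so that rate cannot be set against these flags. Library 3 of 1-year swim held 5 of them: rps27l at 128.6 CPM, rplp2l at 198.1 CPM, RPLP0 at 3551 CPM, RPL11 at 1337 CPM and RPL19 at 1003 CPM. Library 2 of 1-year rest held 3, all high: rpl7a at 775.9 CPM, RPL19 at 469.2 CPM and rps11l at 11.29 CPM. Library 1 of 3-year rest held the other 2, rps11l at 13.46 CPM and rps27l at 36.14 CPM.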

How the results depend on the processing

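The median of the set at rest with age and after swimming at 3 years kept its sign under every alternative run, 1 library left out included (0.29 to 0.42 and 0.12 to 0.37 over those). The cause of the moves below was not tested. With the swim effect at 1 year, the median was 0.065 with library totals, 0.039 with log2(RPKM + 1), 0.0391 with log2(RPKM + 0.1), and 0.10 without the 2 libraries of lowest TMM factors. That last setting gave 0.53 for age after swimming and 0.18 for the interaction, for which RPKM gave 0.095 (pseudocount 1) and 0.0951 (0.1) and library totals 0.070.

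Calls among the 84 moved mostly for age. After swimming 29 were called higher with library totals, 5 with voom, and 33 and 34 with RPKM (pseudocounts 1 and 0.1). DESeq2 called 1 lower, rps11l, and 32 were called higher without the libraries of lowest TMM factors. Of all genes, 3816, 3334, 3334, 3751, 3729 and 2044 were called in that order, against 3010 of 17025 in the main test. In the averaged age effect the count was 1 with RLE factors, 57 with library totals, 1 with no filter, 4 at 1 CPM, 53 with voom, 61 with RPKM at either pseudocount, 70 without the libraries of lowest TMM factors and 0 without those of highest epidermis markers. Of all genes, 3452, 3703, 3179, 3173, 4519, 3631 and 3744 (RPKM), 3416 and 2403 were called in that order, against 3443 of 17025 in the main test. Among these calls of members, 1 was lower with each of RLE factors, library totals, 1 CPM, voom and RPKM. All others were higher. Voom called 1 member lower in the swim effect at 1 year and 1 lower, rps11l (-4.25), in age at rest. DESeq2 called 1 higher in the averaged swim effect. Of all genes, 321, 682 and 455 were called in that order. Where 0 were called in the main tests, counts at an unadjusted p under 0.05 stand with each comparison.

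Leaving out 1 library gave medians of 0.25 to 0.61 (swim, 1 year), -0.03 to 0.39 (age after swimming, lowest without 3-year swim library 4), -0.39 to 0.03 (interaction), 0.26 to 0.45 (averaged swim) and 0.14 to 0.37 (averaged age). Counts ran from 0 to 51 in the averaged age effect, 0 to 2 in age after swimming and 0 to 1 in age at rest. Mean shares ran from 3.29% to 3.42%, 3.18% to 3.63%, 4.03% to 4.396% and 4.47% to 4.94% in the order of the groups. Without mitochondrially encoded genes the mean shares were 3.861%, 4.0993%, 4.7297% and 5.1078% in that order.

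Single genes changed sign as follows, with RPKM values given for pseudocounts 1 and 0.1. For swimming at 3 years rps11l gave 0.35 with voom and, leaving out 1 library, -2.41 (without 3-year rest library 2) to 0.97 (without library 1). There RPL12 gave -0.0228 with library totals, -0.0287 and -0.0288 with RPKM and -0.0133 to 0.204 leaving out 1 library, and RPL7L1 0.011 without the libraries of highest epidermis markers and -0.2328 to 0.0138 leaving out 1 library. For swimming at 1 year, rps19bp1 gave -0.3612 with library totals, -0.0203 with no filter, -0.0141 with only the groups compared, -0.0044 with voom, -0.2578 and -0.3413 with RPKM, -0.0983 without the libraries of lowest TMM factors, -0.0158 without those of highest epidermis markers and -0.0414 to 0.1424 leaving out 1 library. With library totals and RPKM, RPLP0 gave -0.0074, -0.0226 and -0.0226, RPL12 -0.0484, -0.0485 and -0.0486, and RPL4 -0.0504, -0.05 and -0.0501.

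For age at rest, leaving out 1 library gave -0.1052 to 0.1998 for rps19bp1. For age after swimming, rps27l gave 0.2403 with voom, 0.122 and 0.1281 with RPKM, 0.5135 without the libraries of lowest TMM factors and -0.7765 to 0.4051 leaving out 1 library. There rps19bp1 gave 0.0869 with library totals and 0.0568 and 0.0749 with RPKM, RPL7L1 gave 0.0054 without the libraries of lowest TMM factors, and rplp2 gave 0.1364 with library totals, 0.0656 with voom, 0.168 and 0.1682 with RPKM, 0.3412 without the libraries of lowest TMM factors, 0.0434 without those of highest epidermis markers and -0.3453 to 0.1483 leaving out 1 library. In the interaction rps27l was at 0.060 without the libraries of lowest TMM factors. No paired analysis was possible because the labels give no replicate numbers or pairing.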

Other observations

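The unnamed gene ENSDARG00000070516, picked after its values were seen, also stood at 2 levels. It had 7.55 to 15.2 CPM in 1-year rest libraries 1 to 4, 1-year swim libraries 1, 3 and 5 and 3-year rest library 1, and at most 0.0881 CPM in the other 12. Of the 8 libraries high in it, 7 were high in rps11l.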
